A study of Mus musculus with 12 samples.

Results

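The Zfp genes are mouse genes for zinc finger proteins whose symbols are Zfp followed by digits. GENCODE M21, a gene annotation of the mouse genome build GRCm38, holds 365 protein-coding genes of that kind. A gene was counted as measured when a counting interval of the deposited tables lay over the exons of that GRCm38 gene and of no other, over at least 100 bp of them, and the interval over the most exon bases was taken. By this rule 140 Zfp genes were named, of 9917 genes named in all, and 123 of the 140 passed the filter on low counts and were tested. The other 17 averaged between 0 and 0.795 CPM (counts per 1000000 reads in the intervals tested, scaled between libraries) over the libraries.

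Bulk RNA sequencing was performed on trigeminal ganglia, which hold the cell bodies of the sensory neurons of the face and cornea. The mice were female C57BL/6J, 8 weeks old, in 4 groups of 3 libraries. Control mice had no treatment. The injury group was sampled 2 weeks after keratectomy, in which the epithelium and outer stroma were removed from a 1.5 mm disc of the cornea of a randomly chosen eye. The injury with stimulation group had the same wound and then electrical stimulation (ES) over the orbit, as a 300 µA current at 20 Hz given for 4 min a day on 14 days. The stimulation alone group had the current and no wound. Wounded mice also received ketamine, xylazine and an analgesic, and stimulated mice isoflurane at each session, so these exposures move with the groups. A sham treatment with electrodes is described, but no library is labelled as sham. The labels give neither the number of mice nor the side of the ganglia behind a library, so a p-value here is measured against library-to-library spread, which may be partly technical.

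Most Zfp proteins carry a row of C2H2 zinc fingers, short loops in which 2 cysteines and 2 histidines hold a zinc ion and which together read a stretch of DNA. Many also carry a KRAB box, a domain that recruits the corepressor TRIM28 and, through it, the histone methyltransferase SETDB1, heterochromatin proteins and DNA methylation. KRAB zinc finger genes lie in clusters of related copies and are best known for silencing retrotransposons and for protecting imprinted loci. A KRAB box was found by a sequence profile in 91 of the 140 measured genes, and their proteins held a median of 11 C2H2 fingers (range 0 to 33). The genes lay on 20 chromosomes, with 39 on chromosome 7, 18 on chromosome 17, and 10 each on chromosomes 11 and 13.

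The same protein fold is written in letters of very different base composition, which is shown here because the results below follow GC content. Each line is the sequence, from GENCODE M21 transcripts, of the first complete finger (63 coding bases, 21 residues) that lies under the counting interval of a gene described below. Capitals mark the codons of the 2 cysteines and 2 histidines.

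Zfp60: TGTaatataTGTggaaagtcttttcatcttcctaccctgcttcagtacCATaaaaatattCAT

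Zfp292: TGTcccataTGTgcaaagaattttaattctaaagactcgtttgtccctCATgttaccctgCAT

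Zfp445: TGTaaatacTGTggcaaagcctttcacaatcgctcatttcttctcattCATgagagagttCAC

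Zfp715: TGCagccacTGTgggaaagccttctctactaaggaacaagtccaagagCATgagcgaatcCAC

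Zfp768: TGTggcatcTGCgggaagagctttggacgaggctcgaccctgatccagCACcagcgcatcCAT

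Zfp777: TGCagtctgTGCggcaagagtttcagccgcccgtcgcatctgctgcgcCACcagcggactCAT

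On GRCm38 these exonic coding stretches lie at chr7:27748599-27748661 on the plus strand (Zfp60) and on the minus strand at chr4:34811291-34811353 (Zfp292), chr9:122852655-122852717 (Zfp445), chr7:43298645-43298707 (Zfp715), chr7:127344031-127344093 (Zfp768) and chr6:48024977-48025039 (Zfp777). Their GC content was 31.7% in Zfp60, 38.1% in Zfp292, 39.7% in Zfp445, 50.8% in Zfp715, 60.3% in Zfp768 and 63.5% in Zfp777. At the third base of the codons, where many changes leave the residue as it is, the GC content ran from 23.8% in Zfp60 to 76.2% in Zfp768 and Zfp777. Over the whole coding sequence Zfp715 had 43.8% GC, so the finger printed here is richer in GC than the coding sequence as a whole. The 8 complete fingers of Zfp715 under its interval averaged 42.3%. Among 50 measured genes with a complete finger under their interval, the mean finger GC content ran from 32.0% to 61.9%, with a median of 42.1%.

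Each library held between 7952798 and 10751547 counted reads. Sensory neuron markers were present in every library, with 7 of 14 listed genes measured, none of them under 0.1 CPM, and their summed level was 4642 to 5566 CPM in controls, 7291 to 8794 after injury, 6266 to 11323 after injury with stimulation and 8540 to 10192 with stimulation alone. Markers of meninges and fibroblasts (7 of 9 measured) summed to 7952 to 8770 CPM in controls, 25019 to 26056 after injury, 7109 to 8600 after injury with stimulation and 3513 to 8038 with stimulation alone. Myelinating Schwann cell markers (5 of 8 measured) summed to 3184 to 4155 CPM in controls and 6709 to 8512 after injury, 3412 to 6524 after injury with stimulation and 5004 to 5364 with stimulation alone. The part of these shifts in the Zfp values was not tested. In bulk tissue, fewer cells of a type and less RNA per cell cannot be told apart.

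Each gene is seen only through the exon bases under its interval, a median of 803.5 bp (range 104 to 10702 bp). For 41 of the 140 genes those bases held no coding sequence. In 27 genes more than 5% of the 50-letter windows of the counted exons also occur in another gene. The values of these 27, which include Zfp970 (26.2%), Zfp458 (25.8%), Zfp330 (20.7%) and Zfp965 (100%), are uncertain because reads from copies can be exchanged or left uncounted. Counting ignored strand, so antisense transcripts are included.

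Per length, Zfp365, a coiled-coil zinc finger protein that binds DISC1 in neurons, had the highest level of the 140, with a mean of 201 CPM per kb of exon counted over the 12 libraries. Zfp330, a nucleolar protein, followed with 88.9 CPM per kb, Zfp970 with 87.5, Zfp777 with 87.3, Zfp948 with 76.6 and Zfp651 with 73.7. These 5 lie within a narrow range, and the lengths behind them are as short as 126 bp for Zfp948 and 141 bp for Zfp330. Between genes these figures depend on which exon happened to lie under an interval, so the order is that of the counted stretches.

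**Figure D1:**
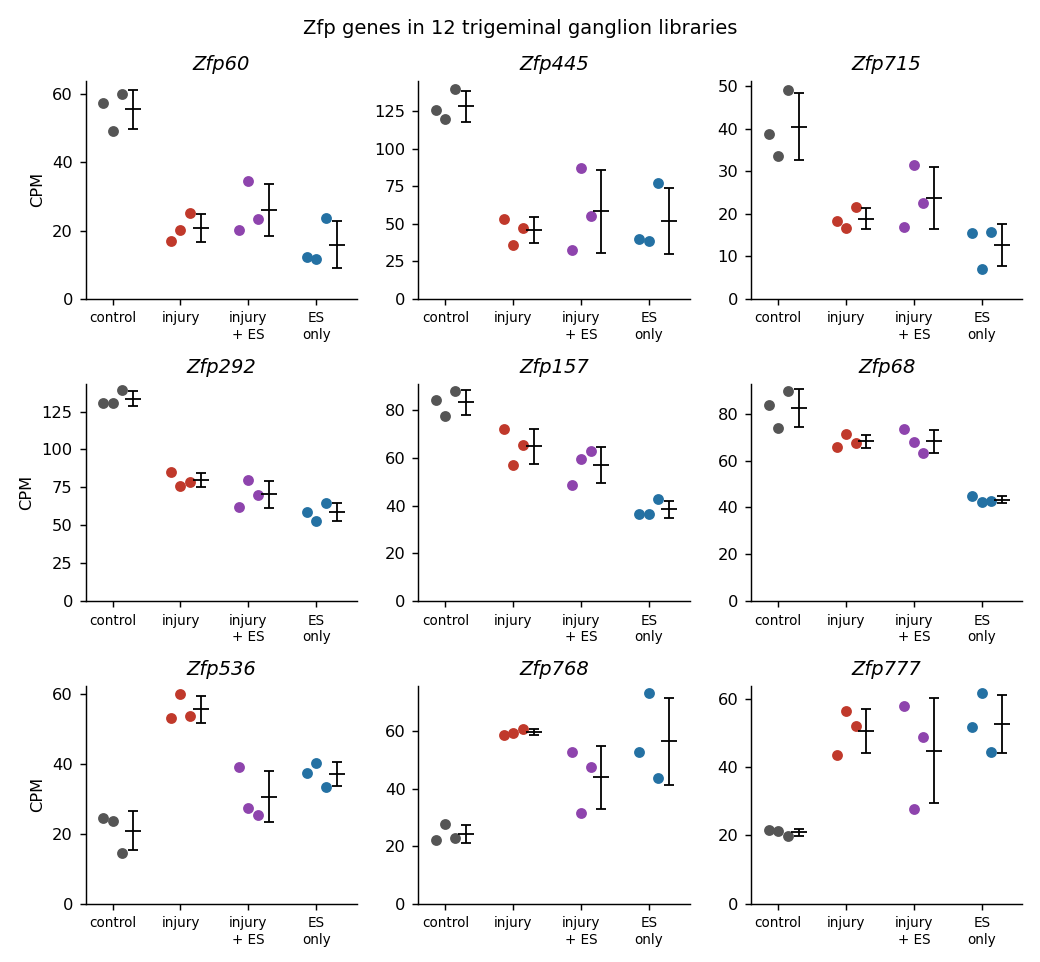
CPM of 9 Zfp genes in each library, as points by group, with the mean and standard deviation (SD, n = 3) beside them. Zfp60, Zfp445, Zfp715 and Zfp292 sit below all control libraries in the other 3 groups, Zfp768 and Zfp777 sit above them, and Zfp536 is highest in the 3 injury libraries.

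Stimulation alone was compared with control to see how the ganglia of unwounded mice differed between these groups. Isoflurane went with the current and no library is labelled as sham, so their parts cannot be told apart. The Zfp genes called were mainly lower with stimulation alone. Of 123 Zfp genes tested, 41 were lower and 11 higher than in control. Of all 13053 intervals tested, 29.8% were called in either direction, 11.7% lower and 18.2% higher. The median log2 fold change of the Zfp genes was -0.52, against 0.03 for all intervals. Here and below, a gene was called at an adjusted p under 0.05 in edgeR's quasi-likelihood test with Benjamini-Hochberg adjustment over all intervals. A log2 fold change is given with an approximate standard error, its size divided by the square root of the test's F statistic.

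Zfp60, a KRAB zinc finger gene of chromosome 7, read 57.4, 49.1 and 60.0 CPM in the control libraries and 12.3, 11.6 and 23.8 with stimulation alone. The groups did not overlap, and the log2 fold change was -1.79 ± 0.26 (adjusted p = 0.00021). Zfp970, a KRAB gene of chromosome 2, read 31.4, 24.9 and 30.8 CPM in control and 9.05, 8.27 and 6.93 with stimulation alone. That change of -1.85 ± 0.20 had the smallest adjusted p of the Zfp genes described here (3.7e-05). Zfp715 fell from 38.8, 33.6 and 49.1 CPM to 15.4, 7.06 and 15.8 (-1.66 ± 0.28, adjusted p = 0.00043). Its 3 stimulated libraries were all below the lowest control.

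Zfp292, a large multi-finger protein of the nervous system whose human counterpart is linked to neurodevelopmental disorders, is read through all 9986 bp of its annotated exons. It read 131, 130 and 139 CPM in control and 58.6, 52.6 and 64.7 with stimulation alone, a log2 fold change of -1.19 ± 0.14 (adjusted p = 5.4e-05). The spread within either group was small beside the gap between them. Zfp445, which binds imprinting control regions and helps to keep their methylation, read 126, 120 and 140 CPM in control and 39.9, 38.8 and 77.4 with stimulation alone (-1.30 ± 0.30, adjusted p = 0.0039). Stimulation alone replicate 3 lay nearer to control than the other two. Zfp110, also called NRIF, a partner of the neurotrophin receptor p75 in neurons, read 15.7, 17.6 and 17.5 CPM in control and 9.86, 6.95 and 9.23 with stimulation alone (-0.96 ± 0.25, adjusted p = 0.0082).

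The largest called decrease was that of Zfp595, at a low level: 2.44, 2.28 and 3.16 CPM in control and 0.580, 0.221 and 0.398 with stimulation alone (-2.68 ± 0.57, adjusted p = 0.0021). Zfp964 (-1.70 ± 0.44, adjusted p = 0.0083) and Zfp965 (-1.68 ± 0.44, adjusted p = 0.0088) were also lower. Zfp965 lost its call without control replicate 3 (adjusted p = 0.070), and all of its counted windows occur in another gene.

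Of the 11 genes that rose, 9 have no KRAB box. Zfp777, a KRAB gene with 60.4% exon GC, read 21.6, 21.4 and 19.8 CPM in control and 51.7, 61.6 and 44.5 with stimulation alone (1.33 ± 0.22, adjusted p = 0.00041). Zfp768, whose human counterpart binds a family of interspersed repeats, read 22.3, 27.9 and 22.7 CPM and then 52.9, 73.1 and 43.5 (1.22 ± 0.21, adjusted p = 0.00048). In both genes the lowest stimulated library stood well above the highest control. Zfp609, a partner of the cohesin loader NIPBL in neural development, read 4.66, 6.48 and 3.05 CPM in control and 10.8, 7.72 and 14.0 with stimulation alone (1.20 ± 0.31, adjusted p = 0.0077). Zfp536, a repressor of neuronal differentiation, rose by 0.82 ± 0.20 (adjusted p = 0.0057), and Zfp668, linked to the DNA damage response, by 0.73 ± 0.15 (adjusted p = 0.0022). Zfp444 was also called (0.77 ± 0.26, adjusted p = 0.033), a call that ended when control replicate 1 or 2, stimulation alone replicate 1 or 2 or injury with stimulation replicate 3 was left out (adjusted p up to 0.22).

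The direction went with base composition. The exons of the tested Zfp genes had a median GC content of 43.9% (quartiles 40.6% and 49.0%), against 49.0% (44.6% and 53.9%) for the 4270 other protein-coding genes named and tested. Of 70 Zfp genes under 45% GC, 39 were lower with stimulation alone and 1 was higher, with a median log2 fold change of -0.82. Of 26 Zfp genes at 50% GC or more, none was lower and 9 were higher, with a median of 0.49. The 27 genes between those bounds gave 2 lower and 1 higher. Other genes showed the same order: under 45% GC, 37.4% of 1170 were lower with a median of -0.58, and at 50% or more, 39.3% of 1920 were higher with a median of 0.52. Across the 123 Zfp genes the rank correlation of the log2 fold change with GC content was 0.64, and across the other genes it was 0.65. These are correlations across genes of the same libraries, and genes are not independent replicates.

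**Figure D2:**
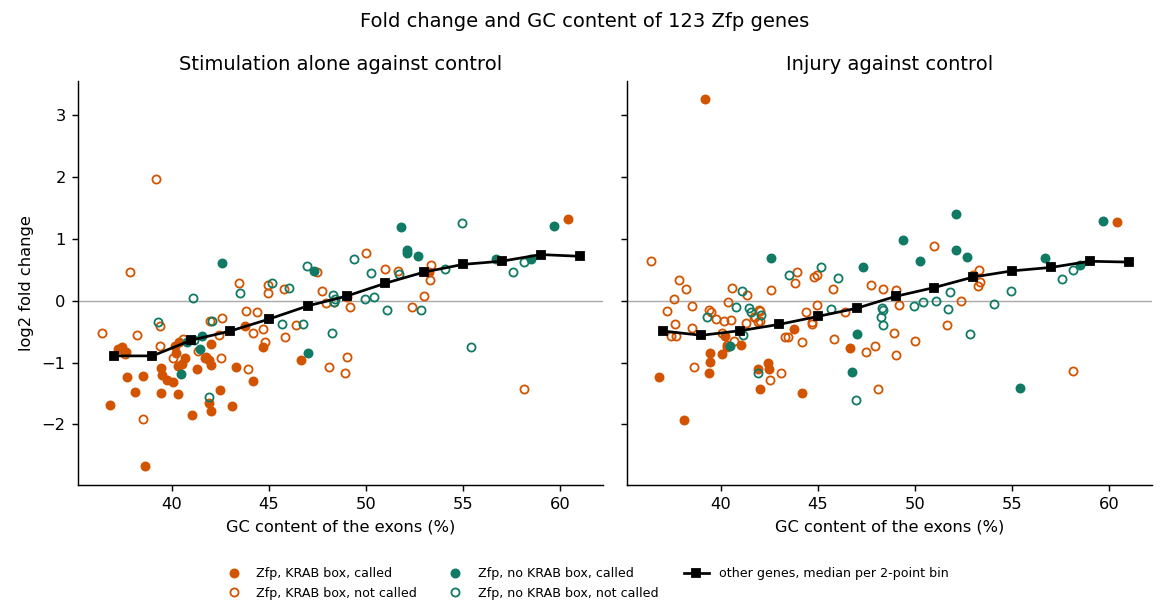
Log2 fold change against the GC content of the gene's exons (%) for 123 Zfp genes, with stimulation alone against control on the left and injury against control on the right. Circles are Zfp genes, filled where called and coloured by KRAB box, and black squares are the medians of other protein-coding genes per 2-point GC bin. With stimulation alone most called genes under 45% GC lie below 0 and all called genes at 50% or more lie above it.

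Other genes of like GC content also had more lower than higher calls. With bins of 2 percentage points of GC, weighted by the number of Zfp genes in each, 25.8% of other genes were lower and 10.1% higher with stimulation alone, with a median of -0.27. Zfp genes had 33.3% lower and 8.94% higher, with a median of -0.52. No test of that difference was made. Among genes under 45% GC the 59 with a KRAB box had 35 lower and none higher, a median of -0.90, and the 11 without one had 4 lower and 1 higher, a median of -0.57. Over all GC contents, 36 of 82 KRAB genes were lower and 2 higher, against 5 lower and 9 higher of 41 genes without the box. The KRAB genes share sequence and many lie close together: 10 of 17 tested KRAB genes on chromosome 17, 6 of 8 on chromosome 13 and 4 of 25 on chromosome 7 were called lower. These chromosomes held the most tested KRAB genes. Elsewhere the share ran from 4 of 4 on chromosome 8 to 0 of 5 on chromosome 6. GC content per chromosome is not given here.

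When each library's trend of counts on exon GC content and exon length was removed, 10 of 123 Zfp genes were lower and 5 higher with stimulation alone, against 4.59% and 8.03% of all intervals, and the Zfp median was -0.06. The relation with GC content was not fully removed: the rank correlation was still 0.24 across the Zfp genes and 0.13 across the other genes. Of the calls as measured, 9 lower and 5 higher ones were kept. The 9 were Zfp595, Zfp970, Zfp60, Zfp715, Zfp445, Zfp292, Zfp157, Zfp110 and Zfp146, and the 5 were Zfp777, Zfp768, Zfp609, Zfp622 and Zfp365. Zfp60 then had -1.30 (adjusted p = 0.00096), Zfp292 -0.57 (adjusted p = 0.0029) and Zfp777 0.69 (adjusted p = 0.011). Zfp536 and Zfp668 no longer passed (0.53 and 0.40, adjusted p = 0.10 and 0.098). Whether the GC trend arose in the tissue or in the libraries was not tested.

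**Figure D3:**
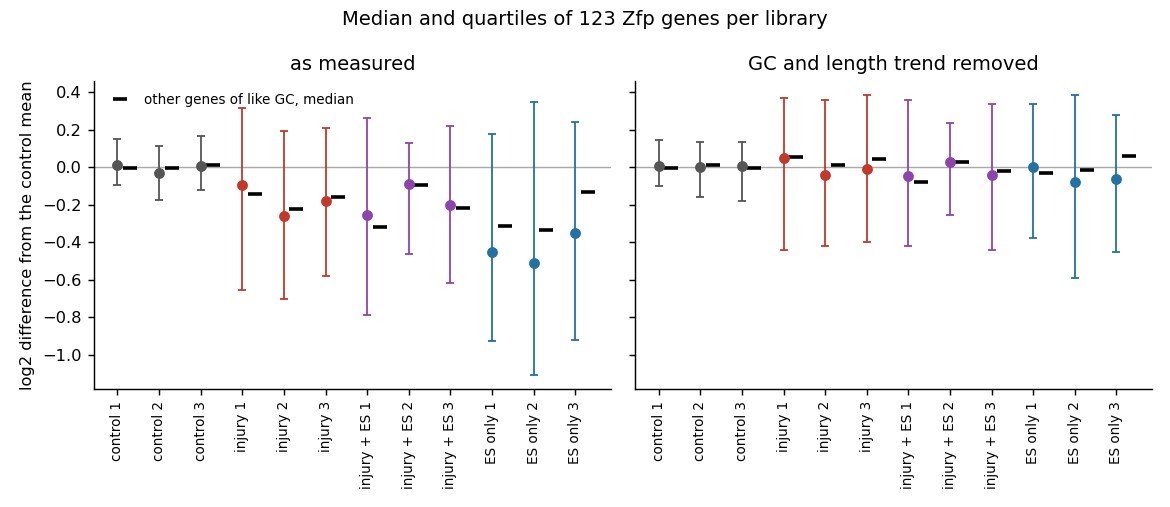
Median (points) and quartiles (bars) over 123 Zfp genes of the log2 difference from the control mean, per library, with the median of other genes of like GC content as a dash. As measured (left), stimulation alone libraries lie at -0.45, -0.51 and -0.35, below their dashes, and without the GC and length trend (right) all library medians lie between -0.08 and 0.05.

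Keratectomy without stimulation was compared with control to see how the ganglia of wounded mice differed. Of the 123 Zfp genes, 20 were lower and 12 higher. Of all intervals, 31.0% were called in either direction, 11.7% lower and 19.3% higher. The median log2 fold change of the Zfp genes was -0.18, and that of other genes of like GC content was the same, -0.18. Among those other genes 21.9% were lower and 11.8% higher, so the Zfp shares of 16.3% and 9.76% were not above theirs in either direction. Leaving out control replicate 1 or control replicate 3 gave 19 called Zfp genes, and leaving out injury replicate 2 gave 17. Here and below, counts from fits that left out a library are given without the share of all intervals called in them. A change in such a count therefore cannot be told apart from a general change in calls.

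Zfp536 had the highest value among genes of at least 1 CPM whose groups did not overlap. It read 24.5, 23.8 and 14.4 CPM in control and 53.1, 60.0 and 53.7 after injury, 1.41 ± 0.20 on the log2 scale (adjusted p = 0.00050). The lowest injured library was more than the highest control by a wide margin, and after removal of the GC and length trend it was 1.42 (adjusted p = 0.00075). The 932 bp counted for Zfp536 hold no coding base, and control replicate 3 was the lowest of the 12 libraries. Zfp768 read 58.7, 59.5 and 60.8 CPM after injury (1.30 ± 0.21, adjusted p = 0.00094) and Zfp777 read 43.5, 56.3 and 51.9 (1.27 ± 0.22, adjusted p = 0.0012). Zfp668 read 19.0, 18.2 and 19.2 CPM in control and 29.4, 33.5 and 29.0 after injury (0.71 ± 0.16, adjusted p = 0.0037). None of these groups overlapped with control.

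Zfp622, a factor of large ribosomal subunit assembly, has a low exon GC content of 42.6% and yet was higher. It read 143, 142 and 113 CPM in control and 202, 225 and 217 after injury (0.69 ± 0.18, adjusted p = 0.0096), and with the trend removed the change was 1.14 (adjusted p = 0.0037). Without control replicate 3 its adjusted p was 0.054. Zfp365 read 40.5, 60.4 and 56.5 CPM in control and 71.8, 74.4 and 82.5 after injury (0.54 ± 0.16, adjusted p = 0.019). That call was lost in 5 of 12 fits that left out a library (control replicate 1, injury replicate 3, injury with stimulation replicate 3, or stimulation alone replicate 1 or 2), with adjusted p up to 0.11. Zfp827, which acts at telomeres, rose from 3.66, 3.64 and 3.28 CPM to 7.88, 6.16 and 6.94 (0.98 ± 0.30, adjusted p = 0.021). Without any 1 of the control libraries, or without injury replicate 1, its adjusted p rose above 0.05, to at most 0.071.

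Zfp936 had the highest log2 fold change of any called Zfp gene (3.26 ± 1.15, adjusted p = 0.041) and is named after its values were seen. It read 0, 0.46 and 0 CPM in control and 2.11, 2.12 and 0.42 after injury. The groups overlap, only 116 bp are counted and 28.4% of its windows occur in another gene.

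Among genes that fell, Zfp677 read 5.99, 4.66 and 9.14 CPM in control and 1.55, 1.91 and 1.67 after injury (-1.94 ± 0.49, adjusted p = 0.0079). Zfp445 read 53.2, 36.2 and 47.5 CPM after injury (-1.49 ± 0.30, adjusted p = 0.0027), against at least 120 in every control. Zfp60 read 17.0, 20.1 and 25.3 CPM (-1.42 ± 0.26, adjusted p = 0.0016) and Zfp715 read 18.2, 16.7 and 21.7 (-1.11 ± 0.27, adjusted p = 0.0065). Zfp292 read 85.2, 76.2 and 78.6 CPM (-0.74 ± 0.14, adjusted p = 0.0016), but with the trend removed it was at -0.12 (adjusted p = 0.43). Zfp445, Zfp60 and Zfp715 kept their calls there, at -1.09, -0.90 and -0.77 (adjusted p = 0.0085, 0.0081 and 0.035).

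The remaining decreases described by the naming rule were at low levels and less firm. Zfp865 (-1.41 ± 0.49, adjusted p = 0.037) and Zfp275 (-1.15 ± 0.41, adjusted p = 0.045) each lost the call in 5 of 12 fits that left out a library. For Zfp865 these were the fits without control replicate 1 or 2 or any 1 injury library, and for Zfp275 those without any 1 control library or injury replicate 2 or 3, with adjusted p up to 0.15 and 0.17. Zfp458 (-1.18 ± 0.33, adjusted p = 0.013) lost it without control replicate 1 or injury replicate 1 (adjusted p up to 0.077). At the threshold itself, Zfp637 was called with adjusted p = 0.049 and Zfp964 was not, with adjusted p = 0.052.

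The log2 fold change after injury also rose with GC content across genes, with a rank correlation of 0.34 over the Zfp genes and 0.49 over the others. Under 45% GC, 16 of 70 Zfp genes were lower and 2 higher, and 30.4% of other genes were lower. At 50% GC or more, 8 of 26 were higher and 1 was lower. In the 2-point bins from 50% to 62% GC, 25.2% to 48.4% of other genes were higher and 1.71% to 3.50% lower. KRAB genes had 16 of 82 lower and 2 higher, and genes without the box had 4 of 41 lower and 10 higher. Genes read mostly through coding bases had 14 of 49 lower and 5 higher, and genes read mostly through other exon bases had 6 of 74 lower and 7 higher. Of all intervals, 11.7% were lower and 19.3% higher after injury. Neither split is matched for GC content here, and no test of either was made. With the GC and length trend removed, 9 of 123 Zfp genes were lower and 13 higher, against 6.84% and 13.9% of all intervals, and the median was 0.02. Zfp91, a ubiquitin ligase of NF-kB signalling, was then higher (0.94, adjusted p = 0.013), while as measured it was at 0.41 ± 0.19 (adjusted p = 0.11).

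Injury and stimulation alone were each set against the same 3 control libraries, so their values are given only side by side. For Zfp60 they were -1.42 and -1.79, for Zfp445 -1.49 and -1.30, for Zfp715 -1.11 and -1.66 and for Zfp768 1.30 and 1.22. Zfp157 and Zfp68 were called with stimulation alone and not after injury, and the difference between those 2 groups was not tested directly. Zfp157 read 84.1, 77.4 and 87.7 CPM in control, 72.0, 57.0 and 65.1 after injury and 36.4, 36.5 and 42.7 with stimulation alone. Its log2 fold changes were -0.36 ± 0.14 after injury (adjusted p = 0.067) and -1.11 ± 0.15 with stimulation alone (adjusted p = 0.00012).

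The wounded and stimulated mice were compared with control, with wounded mice and with stimulated mice to see what both treatments gave together. Against control, 13 of 123 Zfp genes were lower and 6 higher. Of all intervals, 17.2% were called in either direction, 4.93% lower and 12.3% higher. The Zfp median was -0.22, and that of other genes of like GC content was -0.21. The count changed when single libraries were left out, and the shares of all intervals called in those fits are not given. It was 1 without injury with stimulation replicate 3, 37 without replicate 2 of that group and 7 without its replicate 1. It was 6, 12 and 5 without control replicates 1, 2 and 3, each left out in turn. After removal of the GC and length trend, 6 were lower and 4 higher, and of all intervals 8.08% were called, 1.59% lower and 6.49% higher.

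Zfp292 read 62.0, 79.6 and 70.2 CPM after injury with stimulation (-0.92 ± 0.14, adjusted p = 0.0046). It kept its call without any single library, with adjusted p up to 0.038. Zfp60 read 20.0, 34.5 and 23.4 CPM (-1.09 ± 0.26, adjusted p = 0.0092) and Zfp777 57.9, 27.9 and 48.7 (1.096 ± 0.22, adjusted p = 0.0053). Zfp365 read 93.3, 73.9 and 97.4 CPM (0.75 ± 0.16, adjusted p = 0.0067). In each of these last 3 genes the second library lay nearest to control, and without the third library their adjusted p rose to 0.057, 0.052 and 0.063. Zfp445 read 32.6, 87.3 and 55.2 CPM (-1.14 ± 0.30, adjusted p = 0.016), again with the second library nearest to control, and its adjusted p reached 0.069 in the 4 fits without control replicate 1 or 3 or injury with stimulation replicate 1 or 3.

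Against the wounded mice, 1 Zfp gene was called in the wounded and stimulated mice, in a comparison where 1.54% of all intervals were called, 1.5% lower and 0.0383% higher. Zfp536 fell from 53.1, 60.0 and 53.7 CPM after injury to 39.0, 27.4 and 25.4 after injury with stimulation (-0.86 ± 0.20, adjusted p = 0.037). These groups did not overlap. After removal of the GC and length trend the change was -0.89 (adjusted p = 0.032), where 1.84% of all intervals were called, 1.75% lower and 0.0843% higher. The call was lost in 8 of 12 fits that left out a library, which were those without any 1 injury library, any 1 stimulation alone library, or injury with stimulation replicate 2 or 3, with adjusted p up to 0.32. Several marker lists were also lower in the wounded and stimulated libraries than in the wounded ones, among them those of meninges and fibroblasts and of myelinating Schwann cells, in the ranges given above. Oligodendrocyte markers (3 of 6 measured) summed to 309 to 550 CPM after injury and 64.3 to 163 after injury with stimulation. Macrophage markers (4 of 8 measured) went from 185 to 219 CPM to 94.6 to 110 CPM, and endothelial markers (3 of 5 measured) from 27.4 to 37.1 CPM to 19.3 to 26.4 CPM. The 1 of 5 skeletal muscle markers that was measured read 42.3 to 119 CPM and then 0.507 to 18.4 CPM. The part of these cells in the Zfp536 value was not tested. At an unadjusted p under 0.05, 5 of 123 Zfp genes (4.07%) and 1597 of 13053 intervals (12.2%) differed in this comparison.

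Against stimulation alone, 7 of 123 Zfp genes were higher in the wounded and stimulated mice and none was lower. Of all intervals, 4.07% were called, 2.21% higher and 1.85% lower, and of other genes of like GC content 5.35% were higher. All 7 genes had under 45% GC. Zfp970 read 16.0, 19.1 and 19.1 CPM after injury with stimulation against 9.05, 8.27 and 6.93 with stimulation alone (1.17 ± 0.20, adjusted p = 0.0092), and it kept its call in all 12 fits that left out a library. Zfp68 read 73.3, 67.9 and 63.3 CPM against 44.9, 42.5 and 42.7 (0.65 ± 0.13, adjusted p = 0.013), with adjusted p up to 0.065 without the third library of either group. Zfp763, Zfp560, Zfp157 and Zfp62 had values of 0.54 to 0.63, with adjusted p between 0.028 and 0.047. None of the 4 held in more than 5 of the 12 fits that left out a library, and the count of called Zfp genes ran from 1 to 4 in 11 of those fits and was 11 without injury with stimulation replicate 2. With the GC and length trend removed no Zfp gene was called, against 1.37% of all intervals, 0.697% higher and 0.674% lower, and Zfp970 was at 0.67 (adjusted p = 0.085). A rank correlation of the log2 fold change with GC content remained there, -0.36 across the Zfp genes and -0.09 across the other genes.

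The interaction asks whether the difference between wounded and unwounded mice was the same in stimulated and in unstimulated mice. It was positive for 26 of 123 Zfp genes and negative for 5. Of all intervals, 19.2% were called, 6.86% positive and 12.3% negative, and among other genes of like GC content 16.8% were positive and 6.90% negative. The Zfp median was 0.52, against 0.27 for those other genes. Without control replicate 1 or 3 the count of 31 fell to 20. The interaction uses the same control and stimulation alone libraries as the comparison between those groups, so its calls are not separate evidence. Of the 31 genes, 25 were positive here and called lower with stimulation alone, and 5 were negative here and called higher. None had the same sign in both. With the GC and length trend removed, 3 were positive and 4 negative, and of all intervals 4.98% were called, 1.46% positive and 3.52% negative.

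A positive value means that the group with both treatments lay above the sum of the separate changes. Zfp60 averaged 55.5 CPM in control, 20.8 after injury, 15.9 with stimulation alone and 26.0 with both. Its interaction was 2.12 ± 0.37 (adjusted p = 0.0023), that of Zfp715 was 1.99 ± 0.39 (adjusted p = 0.0039), and both kept a call with the trend removed (1.49 and 1.39, adjusted p = 0.0096 and 0.032). Zfp970 had 1.88 ± 0.27 (adjusted p = 0.00095) and 1.20 with the trend removed (adjusted p = 0.015). Negative values mean the reverse. Zfp536 had -1.69 ± 0.29 (adjusted p = 0.0020), Zfp768 -1.66 ± 0.29 (adjusted p = 0.0022) and Zfp777 -1.50 ± 0.30 (adjusted p = 0.0047). These 3 also passed with the trend removed, with values from -1.42 to -0.83 (adjusted p = 0.012, 0.013 and 0.046).

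**Figure D4:**
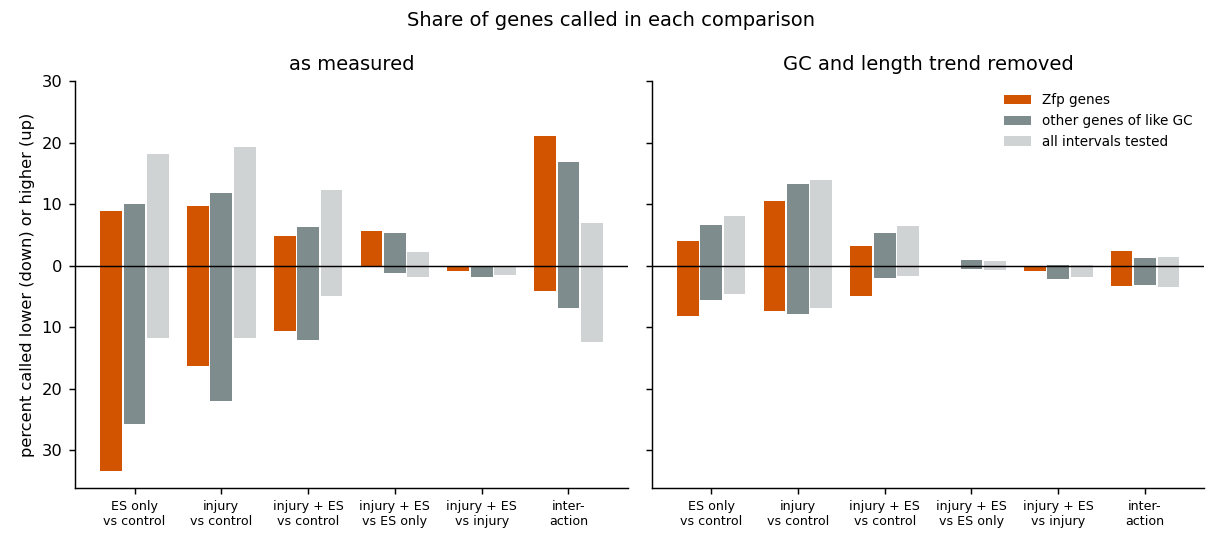
Percent of genes called higher (bars up) and lower (bars down) in the 6 comparisons, for 123 Zfp genes, other protein-coding genes of like GC content and all 13053 intervals tested, as measured (left) and without the GC and length trend (right). With stimulation alone 33.3% of Zfp genes were lower as measured and 8.13% with the trend removed.

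The proteins through which KRAB zinc fingers act were looked at as a list. Of 32 partners of the KRAB pathway, 16 were named by position and 14 tested. After injury 4 were lower and 1 higher, where 31.0% of all intervals were called: Cbx5, a heterochromatin protein (-0.57 ± 0.14, adjusted p = 0.0066), Setdb1, the histone methyltransferase of the pathway (-0.91 ± 0.29, adjusted p = 0.024), Ehmt1 (-1.12 ± 0.35, adjusted p = 0.022), Smarcad1 (-1.10 ± 0.32, adjusted p = 0.016), and Chd3, a remodeller of the NuRD complex (1.13 ± 0.23, adjusted p = 0.0025). With stimulation alone 3 were lower and 2 higher, where 29.8% of all intervals were called, and of these Cbx5 had -0.81 ± 0.14 (adjusted p = 0.00062) and Chd3 1.01 ± 0.23 (adjusted p = 0.0031). With the trend removed only Chd3 of the 5 kept its injury call (adjusted p = 0.0096), and Cbx5 was at adjusted p = 0.80. Neither Cbx5 (adjusted p = 0.093) nor Chd3 (adjusted p = 0.14) then passed the test with stimulation alone. Of the 14 partners, 1 was called higher and 1 lower there, against 8.03% and 4.59% of all intervals. The list's medians were -0.17 after injury and 0.02 with stimulation alone.

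Other zinc finger families had 5 to 9 tested genes each. With stimulation alone, where 11.7% of all intervals were lower and 18.2% higher, 2 of 8 Zbtb genes and 2 of 7 Zscan and Zkscan genes were lower and none higher, no Klf gene of 5 was called, and 1 of 9 Zc3h genes was higher. Their medians were -0.24, -0.39, -0.20 and 0.41. Of the Zfp genes with a studied role that were measured, Zfp568, which represses a placental transcript of Igf2, stayed under 3 CPM in all libraries and was not called in any comparison. Zfp638, a DNA-binding protein that silences unintegrated retroviral DNA, read 1.35 to 4.57 CPM and was not called either. Of the 123 tested Zfp genes, 59 (48.0%) were called in at least 1 of the 6 tests and 64 in none. Of all 13053 intervals, 5936 (45.5%) were called in at least 1.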

How the data were processed

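Per the labels' protocols, poly(A) libraries of trigeminal ganglion RNA were read as 150 bp pairs. The deposited values are whole read counts for 56941 Ensembl 110 identifiers, made with featureCounts 2.0.6 per the file headers: single reads, unstranded, overlapping genes allowed, multi-mapping reads not counted. Salmon 1.10.2, FastQC and DESeq2 are listed in the submitters' processing notes. For the aligner's version and build, nothing is given in the sources used here. Identifiers over a GRCm38 exon, 36.0% of all, held 99.2% of counts, and of the 365 Zfp identifiers 324 lay over no GRCm38 exon of their own (median 0.384 CPM), while the 11 at least 50% over their own exons had a median of 65.0 CPM. Genes were therefore named by GRCm38 position, and 21 of the 140 Zfp genes were read through their own identifier. Counts were tested with edgeR 4.0.16 (TMM, filterByExpr, robust quasi-likelihood fit over all 12 libraries, 13053 intervals). CPM are counts per 1000000 reads in the intervals that passed the filter, with each library's total multiplied by its TMM factor. Only the medians of 0.384 and 65.0 CPM above are per 1000000 counted reads without that scaling. Biological variation was 0.235 as a coefficient, and 8 degrees of freedom remained. Alternatives were size factors, filters, DESeq2 1.42.0, limma 3.58.1 voom, a replicate block, removal of GC and length trends, stricter naming and each library left out. KRAB boxes were found with pyhmmer 0.12.3 on translated GENCODE M21 transcripts. The fits were tested on simulated data. The genes, lists and the rule for named genes (the 6 highest and 6 lowest called values per comparison with a mean of at least 1 CPM and no overlap, the 6 highest levels per kb, genes of known role and those nearest the threshold) were chosen with earlier results of these data known.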

Additional observations from a re-analysis of the deposited data

Results flagged for a closer look

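The difference between wounded and unwounded mice was not the same in stimulated and in unstimulated mice for 31 of 123 Zfp genes. This is by the interaction test itself (edgeR, adjusted over all intervals), against 19.2% of all intervals. Of the Zfp genes 21.1% were positive and 4.07% negative. Of other genes of like GC content 16.8% were positive and 6.90% negative. No test of that difference was made. With the GC and length trend removed, 2.44% of Zfp genes were positive and 3.25% negative, against 1.46% and 3.52% of all intervals. The test uses the same control libraries as the comparisons with control, so its calls are not separate evidence from theirs. Among the genes described in the report, positive values were found for Zfp595 (2.58), Zfp677 (2.54), Zfp60 (2.12), Zfp715 (1.99), Zfp965 (1.96), Zfp964 (1.95), Zfp970 (1.88), Zfp458 (1.84), Zfp445 (1.66), Zfp882 (1.45), Zfp292 (1.01), Zfp763 (0.94), Zfp157 (0.92), Zfp68 (0.92), Zfp62 (0.64) and Zfp560 (0.59), on the log2 scale. Negative values were found for Zfp536 (-1.69), Zfp768 (-1.66), Zfp777 (-1.50), Zfp651 (-0.93) and Zfp668 (-0.92). The interaction calls of 9 of these genes were lost in some of the 12 fits that each left out 1 library. That of Zfp560 was lost in 9 fits, without any 1 control or injury library, injury with stimulation replicate 1 or 3 or stimulation alone replicate 2 (adjusted p up to 0.12). That of Zfp595 was lost in 8, without control replicate 1 or 3, any 1 injury library, injury with stimulation replicate 2 or 3 or stimulation alone replicate 2 (up to 0.086). Zfp964 lost it in 7, without any 1 control library, injury replicate 1 or 2, injury with stimulation replicate 1 or stimulation alone replicate 1 (up to 0.10). Zfp965 also lost it in 7, without control replicate 1 or 3, injury replicate 1 or 2, injury with stimulation replicate 3 or stimulation alone replicate 1 or 2 (up to 0.13). For Zfp62 it was lost in 6, without any 1 control or injury library (up to 0.10). For Zfp882 the 4 fits were those without control replicate 1 or 2, injury replicate 2 or stimulation alone replicate 2 (up to 0.090). For Zfp651 the 3 fits were those without injury with stimulation replicate 3 or stimulation alone replicate 1 or 2 (up to 0.071). The call of Zfp668 was lost without stimulation alone replicate 1 or 2 (up to 0.057), and that of Zfp677 without control replicate 3 (0.065). The other 12 genes named above passed the test in all 12 fits. Those fits did not remove the GC and length trend. With it removed, 3 of the positive calls (Zfp60, Zfp715 and Zfp970) were kept. Of the negative calls 3 were kept (Zfp536, Zfp768 and Zfp777). The groups held 3 libraries each, which is too few for a test of single outlying libraries.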

How the results depend on the processing

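Against the main counts of called Zfp genes (injury against control 32, stimulation alone against control 52, injury with stimulation against injury 1, against stimulation alone 7, against control 19, interaction 31), voom with quality weights gave 49, 65, 3, 21, 50 and 48, and DESeq2 38, 56, 2, 14, 24 and 42. Removing the GC and length trend gave 22, 15, 1, 0, 10 and 7, where 20.7%, 12.6%, 1.84%, 1.37%, 8.08% and 4.98% of all intervals were called. Naming only intervals more than 50% exon gave 13, 20, 0, 2, 10 and 13, from fewer genes. For the other alternatives the shares over all intervals are not given here. A change in those counts therefore cannot be told apart from a general change in how many intervals were called. Fits of only the groups compared gave 45, 56, 0, 0 and 12 for the 5 pairwise comparisons. RLE size factors gave 0 for injury with stimulation against injury, and no filter gave 3 for injury with stimulation against stimulation alone. The replicate block gave 29, 48, 1, 2, 16 and 25, and with the trend also removed 17, 12, 1, 0, 3 and 5. Same-numbered libraries did not deviate together (correlations from -0.26 to 0.20), so the numbers were not taken as pairs. Libraries of unlike number reached larger values. Stimulation alone replicate 3 had 0.44 with injury with stimulation replicate 2 and -0.39 with replicate 1 of that group. What these libraries share was not tested. Leaving out each library gave 17 to 43, 39 to 58, 0 to 1, 1 to 11, 1 to 37 and 20 to 40. Of the values of named genes under these alternatives, 1419 kept direction and side of the threshold, 355 lost the call and 4 reversed: the interaction of Zfp560 (-0.11) and of Zfp62 (-0.050 and -0.052), each with the trend removed, without and with the block. The cause of these reversals was not tested. The losses were uneven over the alternatives. With the trend removed, 42 values were kept, 46 lost the call and 2 reversed. With the replicate block as well, 29 were kept, 59 lost the call and 2 reversed. Fits that left out a library lost from 2 calls (injury with stimulation replicate 2) to 33 (control replicate 1). Counts behind Zfp595, Zfp638 and other genes near 1 CPM limit their precision.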
